A study of Mus musculus with 9 samples.

Results

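The expression of genes for the uptake of vitamin A and for the synthesis and breakdown of retinoic acid (RA) was followed in mouse periocular neural crest (pNC) at E10.5 and in embryonic corneas at E14.5 and E16.5. The genes were picked for their roles in retinoid uptake, synthesis and breakdown, with earlier results of these data known. They were matched by symbol to the Entrez Gene identifiers of the quantified transcripts. All 10 were found among the 19369 genes that were listed in at least 1 sample, namely *Stra6*, *Rdh10*, *Dhrs3*, *Adh1*, *Adh7*, *Aldh1a1*, *Aldh1a2*, *Aldh1a3*, *Cyp26a1* and *Cyp26b1*. The data are RNA-Seq values of 9 samples from C57BL/6 embryos, described in the methods as wild type, with 3 samples per stage and no treatment. Each sample was a pool of tissue from several eyes, and at E10.5 the ectoderm with the lens vesicle and the optic cup had been taken off after dispase digestion. The labels do not say whether the pools of a stage came from separate litters, so p-values measure the spread between these pools.

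RA is made from circulating vitamin A in steps. Retinol enters cells through the membrane receptor STRA6, is oxidized to retinal by RDH10 and by alcohol dehydrogenases, and is returned to retinol by DHRS3, and retinal is then oxidized irreversibly to RA by the ALDH1A enzymes. The CYP26 enzymes oxidize RA further and so clear it. In the embryonic eye the enzymes of RA synthesis are best known in the optic cup, the pigmented epithelium and the ocular surface ectoderm, from which RA reaches the neural crest around the eye.

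Total expected counts, the number of fragments that RSEM assigned to genes, ranged from 8745161 to 9069023 per sample. Markers of periocular mesenchyme summed to between 481 and 503 FPKM (fragments scaled to transcript length and to the mapped fragments of the sample) at E10.5 and to between 211 and 267 at E16.5, while 8 markers of corneal stroma summed to 114 to 177 and 9089 to 10976, respectively. The 10 markers of surface or corneal epithelium summed to 59.3 to 88.7 FPKM in the pNC, 691 to 2191 in E14.5 corneas and 5354 to 7772 at E16.5. All 10 were above 0 in every sample. The 6 markers of pigmented epithelium and melanocytes summed to 49.3 to 55.7 FPKM in the pNC, 60.5 to 112 in E14.5 corneas and 29.1 to 31.2 in E16.5 corneas. Markers of lens stayed at or below 6.77 FPKM in all samples. Lower sums in E16.5 corneas than in the pNC were found for 6 markers of blood vessel endothelium (22.8 to 35.9 FPKM against 109 to 173), 3 of embryonic erythrocytes (3.65 to 7.42 against 3887 to 6113) and 5 of skeletal muscle precursors (6.80 to 7.04 against 18.0 to 18.8), of which *Myf5*, *Myod1* and *Myog* were at 0 in all corneal samples. Of the muscle markers, *Chrna1* went the other way, at 1.17 to 1.55 FPKM in the pNC and 6.49 to 6.72 at E16.5. *Kdr* of the endothelial markers overlapped between these stages (18.3 to 32.5 and 21.7 to 29.3 FPKM). The 5 leukocyte markers summed to 39.8 to 73.5 FPKM in E14.5 corneas, against 20.9 to 25.9 at the other stages. *Lyz2* was the largest of them at E14.5, at 18.1 to 50.3 FPKM against 7.88 to 11.2 at the other stages. *Csf1r* and *Itgam* were also higher in every E14.5 sample, whereas *Ptprc* and *Cd68* overlapped between E10.5 and E14.5. In bulk tissue, fewer cells of a type and less RNA per cell cannot be told apart. The ectoderm was taken off at E10.5, and no such step is described for the corneas. Tissue makeup thus differs with stage by design and cannot be told apart from it. The part of these cell types in the results below was not tested.

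A pair of libraries stood apart from the others of their stage. E14.5 replicate 1 was closer to E16.5 than its companions, with a mean Pearson r over 14304 genes of 0.962 to the E16.5 samples, against 0.918 and 0.926 for replicates 2 and 3. Its epithelial markers summed to 2191 FPKM, against 691 and 811, and its stromal markers to 6007, against 2481 and 3543. In E10.5 replicate 3, 8 markers of optic cup and retina summed to 12.1 FPKM, against 35.9 and 42.6 in the other E10.5 samples, and to between 3.29 and 7.37 at the later stages. None of these 8 markers was at 0 in any E10.5 or E14.5 sample. Both libraries were kept, and values without them are given where they matter.

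To ask how the supply of RA is set across corneal development, stages were compared in a single edgeR quasi-likelihood fit to the rounded expected counts of 14771 genes, all 10 members included. A gene was called higher or lower when its Benjamini-Hochberg adjusted p over all these genes was under 0.05 and its absolute log2 fold change was at least 1. From E10.5 to E14.5, *Dhrs3*, *Adh1*, *Adh7* and *Cyp26a1* rose, so that 4 members were called higher and 0 lower, where 13.6% and 7.97% of all genes tested were called higher and lower. With no fold minimum, *Rdh10* and *Aldh1a3* were added to make 6 higher and 0 lower, where 28.9% and 27.5% of all genes were called. From E10.5 to E16.5, 5 members rose (*Rdh10*, *Dhrs3*, *Adh1*, *Adh7* and *Cyp26a1*) and 4 fell (*Stra6*, *Aldh1a1*, *Aldh1a2* and *Cyp26b1*), where 19.4% of all genes were called higher and 15.4% lower. From E14.5 to E16.5, *Adh1* and *Adh7* rose and the same 4 fell, which made 2 higher and 4 lower, beside 6.26% and 5.47% of all genes.

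The median log2 fold change of the 10 members was 0.86 from E10.5 to E14.5, 0.89 from E10.5 to E16.5 and -0.25 from E14.5 to E16.5, against 0.01, 0.00 and -0.02 over all genes tested. The samples of each stage enter 2 of the 3 comparisons, so these are not separate observations. In FPKM, all 3 E14.5 samples lay above all 3 E10.5 samples for 6 members and below for 0, which is the case for 31.3% and 29.6% of the genes that averaged 1 FPKM or more in some stage. E16.5 lay wholly above E10.5 for 6 members and wholly below for 3, beside 32.9% and 44.2% of genes. E16.5 lay wholly above E14.5 for 2 members and wholly below for 5, beside 14.8% and 38.8%. Scaling the counts by library totals instead of TMM moved the log2 fold changes of E16.5 by -0.15 on average against E10.5 and by -0.16 against E14.5, and counts that change with it are named below.

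**Figure D1:**
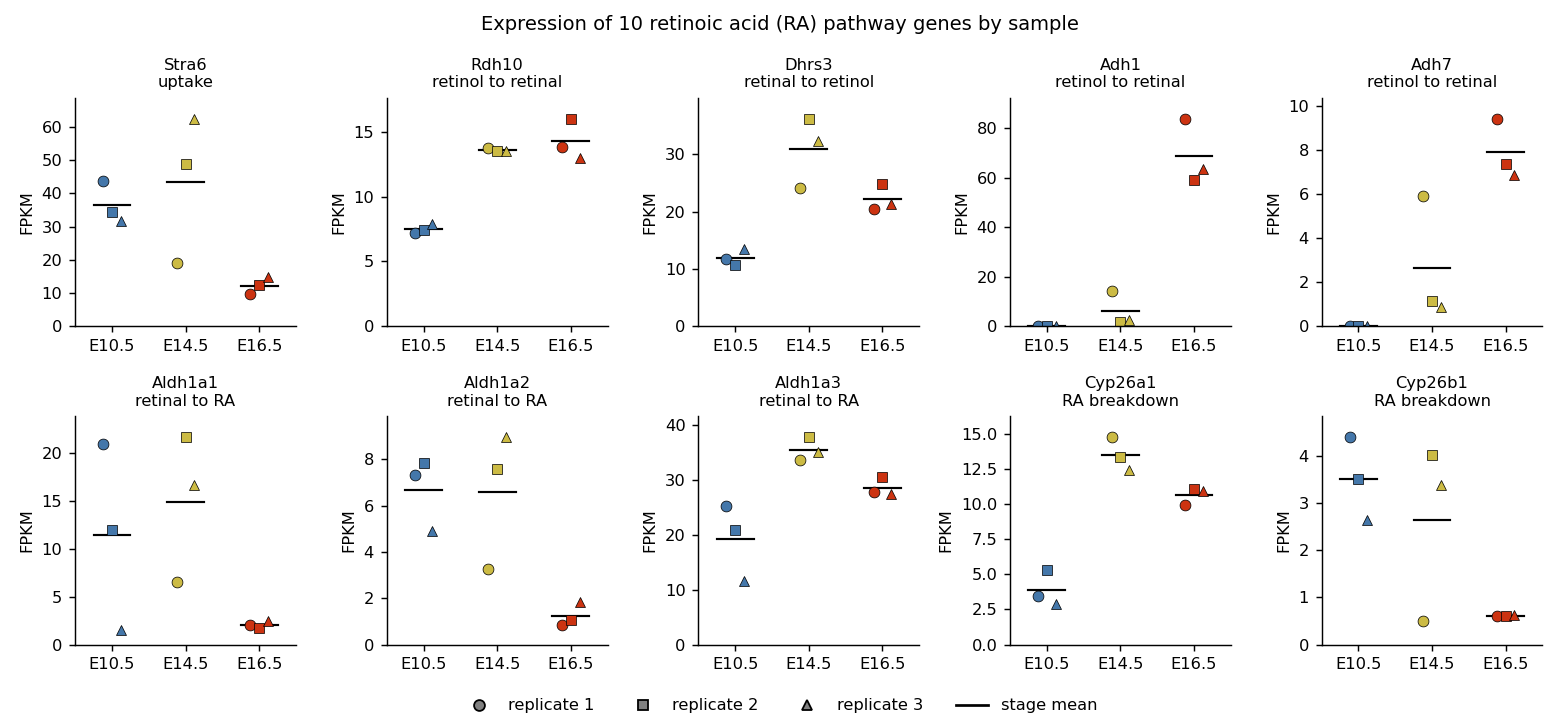
FPKM of each of the 10 genes (linear vertical axes that start at 0 and differ between panels) in the 9 samples, by stage, with symbols for replicate numbers and a horizontal line for the stage mean. *Adh1* is at 0 in the 3 E10.5 samples and at 59.1 to 83.9 FPKM at E16.5, while *Stra6*, *Aldh1a2* and *Cyp26b1* are lower at E16.5 than in every E10.5 sample. The circle of E14.5 replicate 1 lies on the E16.5 side of the other E14.5 samples for *Stra6*, *Dhrs3*, *Adh1*, *Adh7*, *Aldh1a1*, *Aldh1a2*, *Cyp26b1* and, by a small margin, *Aldh1a3*.

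*Stra6*, on chromosome 9 (58063793 to 58154004, GRCm38), encodes the cell surface receptor that takes up retinol from its carrier in plasma. Its level was 43.6, 34.4 and 31.7 FPKM in replicates 1, 2 and 3 in the pNC, 19.03, 49.0 and 62.5 in E14.5 corneas, and 9.67, 12.2 and 14.7 at E16.5. It was thus high in the pNC and in E14.5 replicates 2 and 3, lower in E14.5 replicate 1, and lowest at E16.5, where no sample reached any of the earlier ones. The mean fell from 36.5 ± 6.25 (SD, n = 3) at E10.5 and 43.5 ± 22.3 at E14.5 to 12.2 ± 2.50 at E16.5. In the edgeR fit with Benjamini-Hochberg adjustment, *Stra6* was lower at E16.5 than in the pNC (log2 fold change -1.43, SE 0.36, adjusted p = 0.00402) and than at E14.5 (-1.66, SE 0.36, adjusted p = 0.00538). Between E10.5 and E14.5 the log2 fold change was 0.23 with a 95% interval of -0.52 to 0.98 (adjusted p = 0.585). Without E14.5 replicate 1 it became 0.59 (edgeR adjusted p = 0.00976), still under the fold minimum. At E14.5 *Stra6* exceeded 90.9% of all listed genes by mean FPKM, against 67.7% at E16.5.

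The interconversion of retinol and retinal was represented by *Rdh10* and *Dhrs3*, which encode enzymes of opposite direction. *Rdh10*, on chromosome 1 (16105882 to 16132550), encodes the main retinol oxidizing enzyme of the embryo. Its level was 7.17, 7.44 and 7.90 FPKM in the pNC, 13.8, 13.6 and 13.5 in E14.5 corneas, and 13.9, 16.02 and 13.0 at E16.5. Every corneal sample was above every pNC sample, and the 2 corneal stages overlapped. The coefficient of variation was 4.92% in the pNC and 0.972% at E14.5, where replicate 1 lay with its companions. By edgeR with Benjamini-Hochberg adjustment, *Rdh10* was higher at E16.5 than in the pNC (log2 fold change 1.08, SE 0.11, adjusted p = 7.48e-06). At E14.5 the increase was 0.84 (SE 0.11, edgeR adjusted p = 9.90e-05), which is under the fold minimum.

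*Dhrs3*, on chromosome 4 (144892534 to 144928209), encodes the retinal reductase that returns retinal to retinol and is itself known to be induced by RA. It stood at 11.8, 10.6 and 13.4 FPKM in the pNC, at 24.1, 36.2 and 32.4 in E14.5 corneas, and at 20.5, 24.8 and 21.4 at E16.5. All corneal samples were above all pNC samples, the highest being E14.5 replicates 2 and 3. In the edgeR fit with Benjamini-Hochberg adjustment, *Dhrs3* rose 1.38 on the log2 scale by E14.5 (SE 0.16, adjusted p = 4.14e-05) and was 1.05 above E10.5 at E16.5 (SE 0.16, adjusted p = 1.35e-04). From E14.5 to E16.5 it changed by -0.33 (95% interval -0.66 to 0.01, edgeR adjusted p = 0.117). The calls of *Rdh10* and *Dhrs3* at E16.5 rest on the fold minimum, since scaling by library totals gave log2 fold changes of 0.93 and 0.90, and leaving out E16.5 replicate 2 gave 0.98 and 0.97, with adjusted p (edgeR) from 1.72e-05 to 8.78e-04. With limma on log2(FPKM + 1) they were 0.84 and 0.85. Without E10.5 replicate 2, *Dhrs3* alone fell under the minimum, at 0.99.

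The ratio of *Rdh10* to *Dhrs3* FPKM was 0.633 ± 0.0603 (SD, n = 3) in the pNC, 0.454 ± 0.104 in E14.5 corneas and 0.642 ± 0.0353 at E16.5. In each of the 9 samples the reductase was thus listed above RDH10's transcript, with ratios from 0.374 to 0.701.

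*Adh1* and *Adh7* encode alcohol dehydrogenases of classes that oxidize retinol as well as ethanol, the latter known from epithelia of the stomach and cornea. The genes lie near each other on chromosome 3 (138277585 to 138290698 and 138198064 to 138232042), and their coding sequences are 68.5% identical. Both were without a count in all 3 E10.5 samples, although each of those libraries held at least 8818090 counts. *Adh1* reached 14.3, 1.79 and 2.44 FPKM in E14.5 replicates 1, 2 and 3, and 83.9, 59.1 and 63.6 FPKM at E16.5. *Adh7* reached 5.93, 1.15 and 0.860 FPKM in E14.5 corneas, and 9.43, 7.36 and 6.89 at E16.5. For both genes the stages did not overlap, and at E14.5 replicate 1 was several times above the others, in the library with the most epithelial and stromal marker signal of its stage.

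Against a floor of 3 counts in each E10.5 library, *Adh1* was at least 24.2-fold higher at E14.5 and at least 303-fold higher at E16.5. On the same basis, *Adh7* was at least 16.1-fold and at least 54.2-fold higher. For the lowest sample of each stage these bounds were 6.94 and 264 for *Adh1*, and 5.44 and 47.2 for *Adh7*. All 4 differences were called (edgeR adjusted p = 0.00412 and 3.25e-05 for *Adh1*, 0.00227 and 1.57e-04 for *Adh7*), and they were also called without E14.5 replicate 1. The NOISeq criterion of the study, recomputed from FPKM, did not call *Adh7* at E14.5, with a probability of 0.789 against its minimum of 0.8.

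From E14.5 to E16.5, *Adh1* rose by a log2 fold change of 3.65 (SE 0.58, edgeR adjusted p = 0.00220), or 11.2-fold in mean FPKM. Without E14.5 replicate 1 this became 5.17 (adjusted p = 1.91e-07 by edgeR). *Adh7* rose by 1.74 (SE 0.58, edgeR adjusted p = 0.0460) and by 3.12 without E14.5 replicate 1. The *Adh7* call was lost in edgeR when any other of the 9 samples was left out, with log2 fold changes from 1.33 to 1.83 and adjusted p from 0.0504 to 0.127. It was also lost with library totals (edgeR adjusted p = 0.0575) and in DESeq2 (adjusted p = 0.117). By E16.5 *Adh1* exceeded 95.5% of listed genes in mean FPKM, the highest position of the 10 members at any stage. Exons of *Adh1* overlap those of the antisense gene *Gm16559*, and exons of *Adh7* those of the antisense gene *0610031O16Rik*. Whether counting used strand is not given in the sources used here, so reads of these partners cannot be told apart.

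Summed over *Rdh10*, *Adh1* and *Adh7*, the transcripts of the retinol oxidizing members averaged 7.50 FPKM (7.17 to 7.90) in the pNC. The sum averaged 22.4 (up to 34.0, in replicate 1) in E14.5 corneas and 91.0 (82.5 to 107) in E16.5 corneas, with no overlap. It leaves out other genes of retinoid metabolism, among them the alcohol dehydrogenase gene *Adh5*. *Adh5* was at 98.2, 102 and 105 FPKM in the pNC, 67.7, 77.2 and 64.7 in E14.5 corneas, and 58.4, 49.4 and 52.4 at E16.5. It was thus above the sum in every pNC and E14.5 sample, and fell across the stages while the sum rose. *Rdh10* made up all of the sum of the members in the pNC. Its share was 40.5%, 82.2% and 80.4% in the E14.5 replicates, and 12.9%, 19.4% and 15.5% at E16.5. Without *Adh5*, the sum of these members was 0.633 ± 0.0603 times the *Dhrs3* level in the pNC, 0.795 ± 0.534 times in E14.5 corneas and 4.15 ± 0.977 times at E16.5. These ratios describe the named members only. The E16.5 ratios, from 3.32 to 5.23, were above all others, and the highest at E14.5 was 1.41 in replicate 1.

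**Figure D2:**
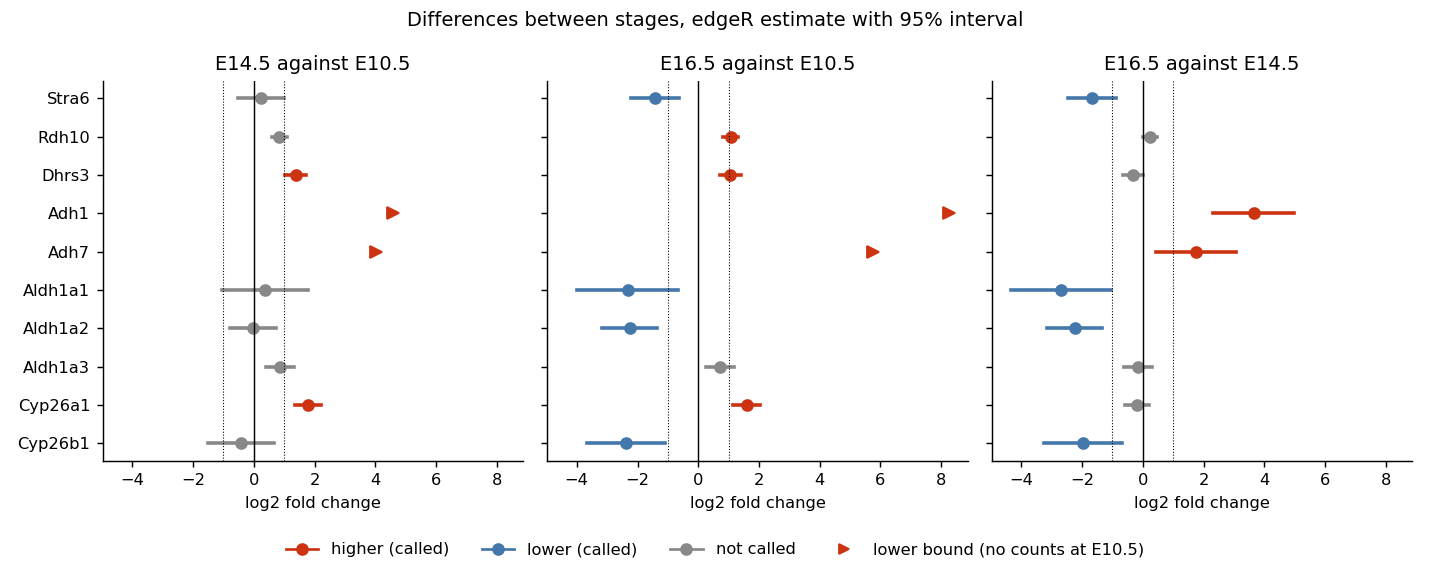
Log2 fold changes (horizontal axis) of the 10 genes in the 3 stage comparisons, as edgeR estimates with 95% intervals, dotted lines marking the fold minimum of 1 in either direction. Triangles are lower bounds for *Adh1* and *Adh7*, which had no counts in the pNC, at log2 values of 4.60 and 4.01 for E14.5 and 8.25 and 5.76 for E16.5. *Stra6*, *Aldh1a1*, *Aldh1a2* and *Cyp26b1* lie left of the minimum in both comparisons of E16.5, and *Aldh1a3* is called in none.

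Synthesis of RA from retinal was represented by *Aldh1a1*, *Aldh1a2* and *Aldh1a3*. *Aldh1a3*, on chromosome 7 (66390892 to 66427477), encodes the enzyme known from the ventral retina and the ocular surface ectoderm. It was the most abundant of the 3 genes in each of the 9 samples, at 25.1, 20.8 and 11.5 FPKM in the pNC, 33.6, 37.7 and 35.0 in E14.5 corneas, and 27.7, 30.4 and 27.4 at E16.5. All corneal samples were above all pNC samples, and the E16.5 samples were all below those of E14.5. By edgeR with Benjamini-Hochberg adjustment, the increase was 0.87 at E14.5 (SE 0.21, adjusted p = 0.00501) and 0.72 at E16.5 (SE 0.21, adjusted p = 0.0104), both under the fold minimum. E10.5 replicate 3 was the lowest sample, and without it the increases were 0.60 and 0.45. Leaving out E10.5 replicate 1 instead raised the first to 1.12, past the minimum. Between E14.5 and E16.5 the log2 fold change was -0.15 (95% interval -0.61 to 0.31, edgeR adjusted p = 0.611).

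*Aldh1a2*, on chromosome 9 (71215789 to 71296243), encodes the enzyme that makes most RA in the early embryo, including in mesenchyme. It was listed at 7.32, 7.84 and 4.90 FPKM in the pNC, 3.27, 7.58 and 8.95 in E14.5 corneas, and 0.860, 1.05 and 1.84 at E16.5. The first 2 stages overlapped, and every E16.5 sample was below all of them. In the edgeR fit with Benjamini-Hochberg adjustment, it was lower at E16.5 than in the pNC (log2 fold change -2.26, SE 0.41, adjusted p = 4.82e-04) and than at E14.5 (-2.24, SE 0.41, adjusted p = 0.00251). These calls were also made without either of the libraries that stood apart. Between the pNC and E14.5 the value was -0.03 (95% interval -0.79 to 0.74, edgeR adjusted p = 0.954), and 0.30 without E14.5 replicate 1.

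*Aldh1a1*, on chromosome 19 (20492583 to 20643463), encodes the enzyme of the dorsal retina, lens and adult cornea. It spread most widely within a stage among the genes that were detected in the pNC, at 20.9, 11.96 and 1.49 FPKM in the pNC, 6.53, 21.6 and 16.6 in E14.5 corneas, and 2.08, 1.72 and 2.41 at E16.5. The E16.5 samples were low and alike, and overlapped E10.5 only through E10.5 replicate 3, which was 14.1 times below the highest pNC sample. That library also had the lowest optic cup marker signal of its stage. By edgeR with Benjamini-Hochberg adjustment, *Aldh1a1* was lower at E16.5 than in the pNC (log2 fold change -2.32, SE 0.75, adjusted p = 0.0171) and than at E14.5 (-2.69, SE 0.75, adjusted p = 0.0181). Without E10.5 replicate 3 the former was -2.85 (edgeR adjusted p = 4.91e-04), but it was lost without E10.5 replicate 1 (-1.55, edgeR adjusted p = 0.0897) or without E16.5 replicate 2 (-2.21, edgeR adjusted p = 0.0547), and in limma on log2(FPKM + 1) (-1.54, adjusted p = 0.0624). The latter was lost without E14.5 replicate 2 or any E16.5 sample (edgeR adjusted p from 0.0520 to 0.0635). The log2 fold change between the pNC and E14.5 was 0.37 (95% interval -1.04 to 1.77), and it turned to -0.16 without E10.5 replicate 3.

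**Figure D3:**
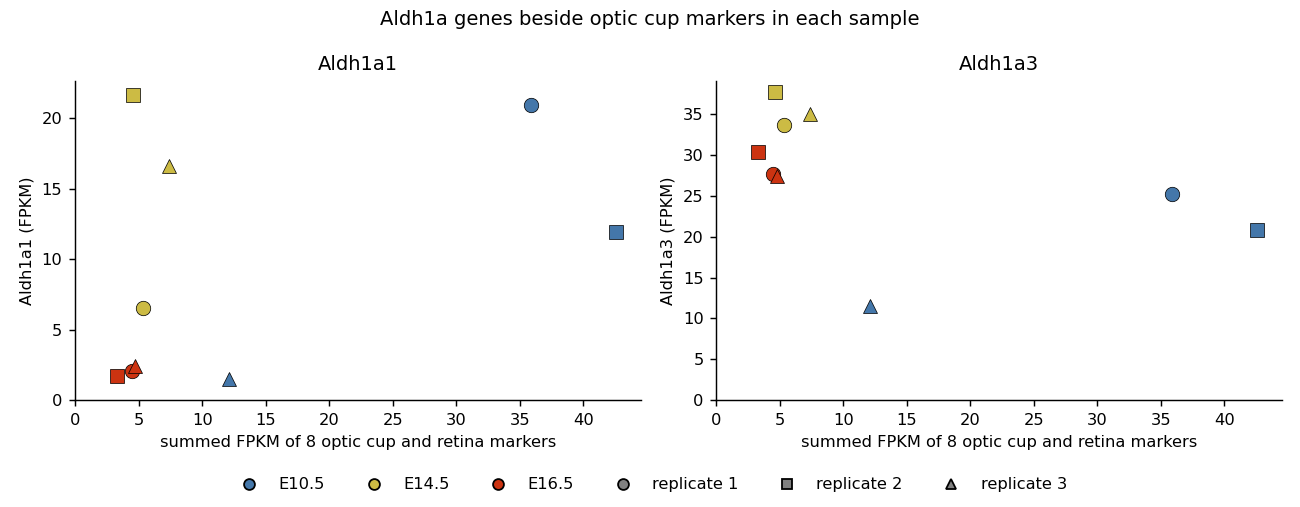
FPKM of *Aldh1a1* (left) and *Aldh1a3* (right) against the summed FPKM of 8 optic cup and retina markers in each of the 9 samples, all axes linear from 0, with colors for stages and symbols for replicate numbers. Among the E10.5 samples, replicate 3 is lowest on both axes in both panels, with marker sums of 12.1 against 35.9 and 42.6. The E14.5 samples have marker sums of 4.58 to 7.37 and *Aldh1a1* levels of 6.53 to 21.6 FPKM.

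The *Aldh1a1* values also depend on how reads were divided with *Aldh1a7*, which lies beside it on chromosome 19 (20692953 to 20727556). *Aldh1a7* has a transcript about as long and encodes a close relative of the enzyme, best known for handling other aldehydes. In the GENCODE M21 annotation of GRCm38, the coding sequences of the pair have 1503 bases each and are 91.6% identical, with 126 differences. Identity among the 3 *Aldh1a* members was between 66.0% and 67.9%. The most different stretch of 90 bases, coding bases 310 to 399, holds 19 of the differences, and is shown because reads from here can be told apart. It comes from chr19:20618018-20620055 on the plus strand for *Aldh1a1* and chr19:20719229-20722280 on the minus strand for *Aldh1a7*, each spliced across an intron, and capitals mark the bases that differ.
Aldh1a1: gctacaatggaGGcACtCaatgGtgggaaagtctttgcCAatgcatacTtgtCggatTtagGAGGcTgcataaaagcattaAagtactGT
Aldh1a7: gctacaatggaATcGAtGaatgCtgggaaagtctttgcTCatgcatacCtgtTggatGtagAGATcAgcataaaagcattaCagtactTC
The longest stretch without a difference has 100 bases, coding bases 757 to 856, and a read inside it fits both genes equally. It lies at chr19:20629063-20630671 in *Aldh1a1*, spliced across an intron.
Shared by Aldh1a1 and Aldh1a7: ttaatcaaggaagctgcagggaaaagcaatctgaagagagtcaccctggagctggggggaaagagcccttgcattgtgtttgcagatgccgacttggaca

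The expected counts showed that reads had been divided between the pair. The other 9 members had whole expected counts in every sample, within 0.005, while those of *Aldh1a1* and *Aldh1a7* were fractional in every sample and added up to whole numbers. *Aldh1a7* alone was at 3.04, 2.36 and 1.78 FPKM in the pNC, 19.1, 39.1 and 28.3 in E14.5 corneas, and 11.5, 11.2 and 11.1 at E16.5, with no overlap between stages. The share of the summed count assigned to *Aldh1a1* was 87.2%, 83.3% and 45.3% in the pNC, 25.2%, 35.3% and 36.7% in E14.5 corneas, and 15.1%, 13.1% and 17.7% at E16.5.

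With the counts of the pair added together before the fit, a choice made after the data were seen, the sums were 438, 264 and 59 in the pNC, 461, 1094 and 820 in E14.5 corneas, and 244, 235 and 245 at E16.5. The summed counts were higher at E14.5 than at E10.5 (log2 fold change 1.65, SE 0.50, edgeR adjusted p = 0.0154) and lower at E16.5 than at E14.5 (-1.55, SE 0.50, edgeR adjusted p = 0.0334). Between E10.5 and E16.5 they differed by 0.11 (95% interval -1.02 to 1.24, edgeR adjusted p = 0.863), and by -0.37 without E10.5 replicate 3 (edgeR adjusted p = 0.344), so the decrease of *Aldh1a1* at E16.5 against the pNC did not pass the test in the sum. The decrease against E14.5 passed it in both. *Aldh1a7* itself was 3.58 above E10.5 in E14.5 corneas and 2.38 above it at E16.5 on the log2 scale (SE 0.27 for both, edgeR adjusted p = 2.17e-06 and 1.73e-05).

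**Figure D4:**
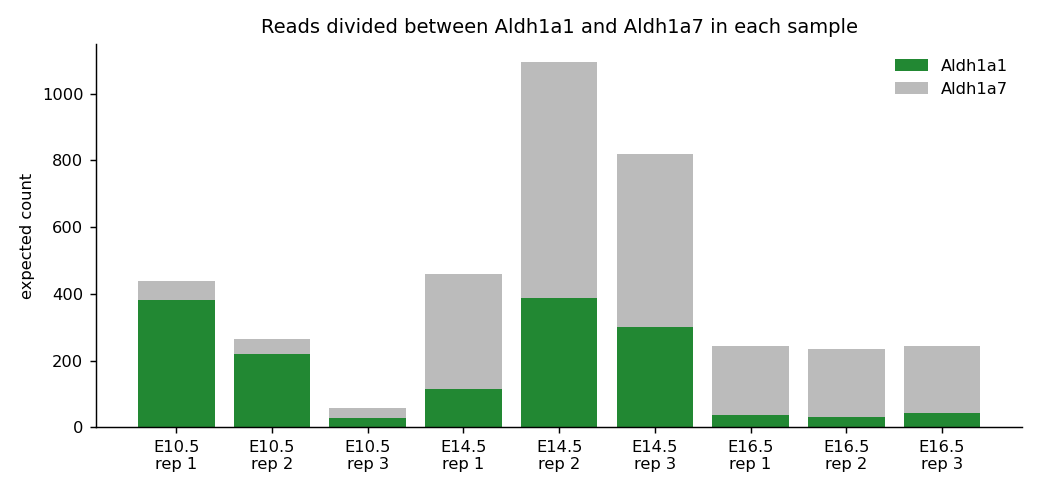
Expected counts of *Aldh1a1* (green) and *Aldh1a7* (grey) stacked for each of the 9 samples on a linear axis from 0. The green part is most of the bar in E10.5 replicates 1 and 2 (87.2% and 83.3%) and 13.1% to 17.7% of it at E16.5, while whole bars reach 1094 counts at E14.5 and are alike at E16.5 (235 to 245).

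Breakdown of RA was represented by *Cyp26a1* and *Cyp26b1*, whose products clear RA and keep tissues from being exposed to it. *Cyp26a1*, on chromosome 19 (37697738 to 37701536), is a classic direct target of RA receptors. Among the RefSeq promoter windows of GRCm38.p6, from 250 bases before to 50 after a gene start, 14 belonged to 8 members. They were searched on both strands for direct repeats of AGGTCA or AGTTCA with 5 bases between, the form that RA receptors are known to bind best. Only the *Cyp26a1* window held a match, and 13 of 32851 windows of all genes did (0.0396%). Repeats with 2 bases between were found in 0 of the 14 windows, as were repeats with 1 base between, against 0.0396% and 0.0822% of all windows. The match lay 16 to 32 bases before the start site of its window, position 37697808, and read on the opposite strand. That site is 70 bases inside the gene bounds given above, which reach further upstream and take in the match. It is shown on the plus strand at chr19:37697770-37697799 with the repeat in capitals, as a match of letters and not as a site of measured binding.
Cyp26a1: taaagaTGAACTttgggTGAACTaatttgt

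*Cyp26a1* stood at 3.45, 5.34 and 2.88 FPKM in the pNC, at 14.8, 13.4 and 12.4 in E14.5 corneas, and at 9.94, 11.1 and 10.9 at E16.5. The 3 stages did not overlap, with the pNC lowest and E14.5 highest, and E14.5 replicate 1 was with its companions. In the edgeR fit with Benjamini-Hochberg adjustment, it rose 1.78 by E14.5 on the log2 scale (SE 0.20, adjusted p = 3.15e-05) and was 1.60 above the pNC at E16.5 (SE 0.20, adjusted p = 2.99e-05). The change from E14.5 to E16.5 was -0.18 (95% interval -0.58 to 0.22, edgeR adjusted p = 0.467). The 2 increases over E10.5 were called under every alternative that was run.

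*Cyp26b1*, on chromosome 6 (84571414 to 84593908), encodes the RA hydroxylase known from limb, skeleton and germ cells. It was at 4.41, 3.51 and 2.65 FPKM in the pNC, 0.510, 4.03 and 3.40 in E14.5 corneas, and 0.600, 0.600 and 0.620 at E16.5. E14.5 replicate 1 was as low as the E16.5 samples, whereas replicates 2 and 3 were within the range of the pNC. By edgeR with Benjamini-Hochberg adjustment, *Cyp26b1* was lower at E16.5 than in the pNC (log2 fold change -2.39, SE 0.58, adjusted p = 0.00343) and than at E14.5 (-1.97, SE 0.58, adjusted p = 0.0242). Without E14.5 replicate 1 the latter was -2.46 (edgeR adjusted p = 4.70e-06). It was lost when either of the other E14.5 samples or any E16.5 sample was left out (edgeR adjusted p from 0.0691 to 0.0937), and in limma on log2(FPKM + 1) (adjusted p = 0.0522). Between the pNC and E14.5 the value was -0.42 (95% interval -1.52 to 0.68), and 0.07 without E14.5 replicate 1. The third gene of the family, *Cyp26c1*, lies beside *Cyp26a1* and stayed between 0.220 and 1.21 FPKM in all samples, with no call in any comparison.

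The makeup of the synthesis and breakdown steps was described by the share of each gene. *Aldh1a3* supplied 47.1%, 51.3% and 64.3% of the summed FPKM of *Aldh1a1*, *Aldh1a2* and *Aldh1a3* in the pNC, 77.4%, 56.3% and 57.8% in E14.5 corneas, and 90.4%, 91.6% and 86.6% at E16.5. All E16.5 samples were above all others, and the 2 earlier stages overlapped. With *Aldh1a7* added to the sum the mean share was 50.5% in the pNC, 42.9% in E14.5 corneas and 66.1% at E16.5. *Cyp26a1* made up 43.9%, 60.3% and 52.1% of the summed FPKM of *Cyp26a1* and *Cyp26b1* in the pNC, 96.7%, 76.9% and 78.5% in E14.5 corneas, and 94.3%, 94.9% and 94.6% at E16.5. Every corneal sample was thus above every pNC sample in the share of *Cyp26a1*.

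The summed *Aldh1a* level was 53.4, 40.6 and 17.9 FPKM in the pNC, 43.4, 66.9 and 60.5 in E14.5 corneas, and 30.6, 33.2 and 31.7 at E16.5. The summed *Cyp26* level was 7.86, 8.85 and 5.53 FPKM in the pNC, 15.3, 17.4 and 15.8 at E14.5 and averaged 11.3 ± 0.634 (SD, n = 3) in E16.5 corneas. The *Cyp26* sums did not overlap between stages, whereas the *Aldh1a* sums of E10.5 spanned those of E16.5.

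As a balance of synthesis to breakdown, the log2 ratio of the 2 sums was 2.76, 2.20 and 1.70 in the E10.5 samples, 1.50, 1.94 and 1.93 in E14.5 corneas, and 1.54, 1.50 and 1.46 at E16.5. The stage means were 2.22 ± 0.53 (SD, n = 3), 1.79 ± 0.25 and 1.50 ± 0.04. In linear terms there were 4.88 ± 1.80, 3.50 ± 0.573 and 2.83 ± 0.0822 transcripts of *Aldh1a* genes per *Cyp26* transcript. The E16.5 samples were below all E10.5 samples, and E14.5 overlapped both. The genes were chosen together, so the ratio was not tested. Its order across stages did not hold with *Aldh1a7* added to the sum, which gave means of 2.32, 2.37 and 1.94, nor in expected counts, which are not scaled to transcript length and gave 2.05, 2.20 and 2.27. With *Aldh1a1* left out of the sum the means were 1.77, 1.37 and 1.40, so that E14.5 was lowest.

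**Figure D5:**
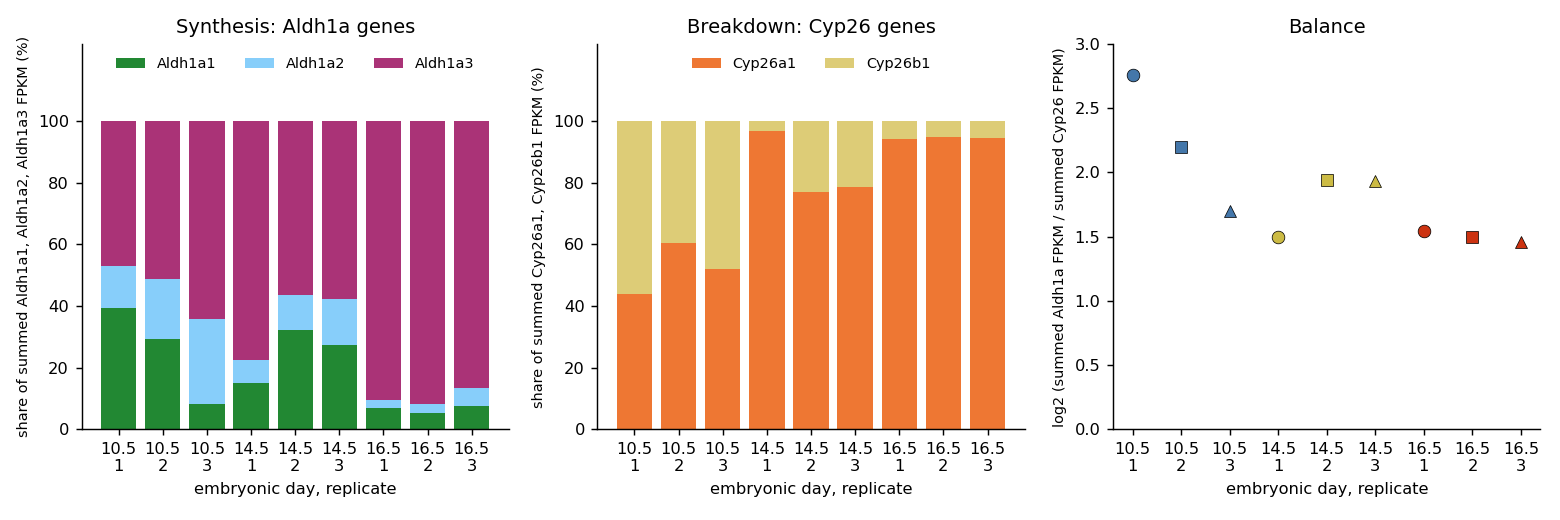
Share of each gene in the summed FPKM of *Aldh1a1*, *Aldh1a2* and *Aldh1a3* (left, percent), share of *Cyp26a1* and *Cyp26b1* in their sum (middle, percent), and log2 ratio of the *Aldh1a* sum to the *Cyp26* sum (right) in each of the 9 samples. *Aldh1a3* reaches 86.6% to 91.6% and *Cyp26a1* 94.3% to 94.9% at E16.5, where the log2 ratio lies between 1.46 and 1.54 against 1.70 to 2.76 at E10.5.

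Ordered by mean FPKM, the members at E10.5 ran from *Stra6* (36.5), *Aldh1a3* (19.2), *Dhrs3* (11.9) and *Aldh1a1* (11.5) through *Rdh10* (7.50) and *Aldh1a2* (6.69) to *Cyp26a1* (3.89), *Cyp26b1* (3.52) and to *Adh1* and *Adh7*, both at 0. All samples of *Stra6* were above those of every other member, and from *Aldh1a3* to *Cyp26b1* the samples of each gene overlapped those of the next. At E14.5 the order began with *Stra6* (43.5), *Aldh1a3* (35.4) and *Dhrs3* (30.9), whose samples overlapped, and ended with *Adh7* and *Cyp26b1* (2.65 each). At E16.5 *Adh1* (68.9) stood first, followed by *Aldh1a3* (28.5) and *Dhrs3* (22.2), with no overlap among the samples of these 3 genes, and the last places were held by *Aldh1a1* (2.07), *Aldh1a2* (1.25) and *Cyp26b1* (0.607).

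Beyond these 10 genes, 31 others of retinoid metabolism were listed for comparison, of which 18 were tested. From E10.5 to E14.5, 2 rose and 1 fell, from E10.5 to E16.5, 3 rose and 2 fell, and from E14.5 to E16.5, 1 rose and 2 fell. The shares of all genes called higher and lower were 13.6% and 7.97%, 19.4% and 15.4%, and 6.26% and 5.47% in the same order. The list had median log2 fold changes of 0.13, -0.04 and -0.22, against 0.01, 0.00 and -0.02 over all genes, which also stand beside the medians of the next lists. Among those with a mean of at least 5 FPKM, *Cyp1b1*, which encodes a cytochrome able to oxidize retinol to RA, was higher at E14.5 (5.24 ± 1.25 FPKM, n = 3) than at E10.5 (1.74 ± 0.450) and E16.5 (1.40 ± 0.215), with log2 fold changes of 1.57 (edgeR adjusted p = 1.86e-04) and, from E14.5 to E16.5, -1.73 (edgeR adjusted p = 6.97e-04). *Akr1b3* and *Akr1b8*, aldo-keto reductases, were lower at E16.5 than in the pNC, with log2 fold changes of -1.09 and -2.64 (edgeR adjusted p = 3.71e-07 and 5.00e-06). *Rdh14* and *Dhrs7*, short-chain dehydrogenases, were higher, at 1.06 and 1.55 (edgeR adjusted p = 6.68e-05 and 0.00107).

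Of 15 genes for retinoid binding proteins and receptors, 11 were tested. From E10.5 to E14.5, 0 rose and 6 fell (median log2 fold change -1.08), where 13.6% and 7.97% of all genes were called higher and lower, from E10.5 to E16.5, 1 rose and 3 fell (median -0.13, beside 19.4% and 15.4%), and from E14.5 to E16.5, 3 rose and 1 fell (median 0.20, beside 6.26% and 5.47%). Between E10.5 and E14.5 the falls included *Crabp1* and *Crabp2*, which encode RA binding proteins of the cytoplasm (log2 fold change -1.83 and -1.37, edgeR adjusted p = 0.00168 and 5.67e-06), and *Rarb*, an RA receptor gene that is itself induced by RA (-1.46, edgeR adjusted p = 8.60e-04). The genes that rose from E14.5 to E16.5 were *Crabp1* (to 324 ± 4.89 FPKM, n = 3, log2 fold change 1.33, edgeR adjusted p = 0.0172), *Fabp5*, which encodes a fatty acid binding protein that also carries RA (82.7 ± 9.37 to 170.3 ± 38.9 FPKM, 1.21, edgeR adjusted p = 5.68e-04), and *Rbp2*, a retinol binding protein gene at low levels (0.0600 ± 0.104 to 5.16 ± 2.01 FPKM, 6.16, edgeR adjusted p = 3.88e-04). *Crabp1* was not called between E10.5, where it averaged 507 FPKM, and E16.5. *Fabp5* had averaged 173 ± 14.8 FPKM at E10.5 and was among the falls at E14.5 (log2 fold change -1.08, edgeR adjusted p = 1.39e-04). Its E16.5 samples overlapped those of the pNC. *Rarb* went from 46.2 ± 5.48 FPKM in the pNC to 17.0 ± 6.94 in E14.5 corneas and 4.12 ± 0.960 at E16.5 (n = 3 each). Relative to the pNC this was the opposite direction to *Dhrs3* and *Cyp26a1*, also known targets of RA. From E14.5 to E16.5 the log2 fold changes of *Dhrs3* and *Cyp26a1* were negative too, at -0.33 and -0.18, and not called.

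Of 15 genes known to respond to RA, 11 were tested, and some of the 15, *Rarb* and *Crabp2* among them, are also on the list before. From E10.5 to E14.5, 2 rose and 5 fell (median -0.75), beside 13.6% and 7.97% of all genes. From E10.5 to E16.5, 2 rose and 5 fell (median -0.66), beside 19.4% and 15.4%. From E14.5 to E16.5, 0 rose and 2 fell (median -0.01), beside 6.26% and 5.47%. *Meis2*, which encodes a homeodomain factor, rose in both comparisons with E10.5, by 1.69 on the log2 scale for E14.5 (edgeR adjusted p = 2.44e-06). *Nr2f1*, *Nr2f2* and *Eya2*, which encode nuclear receptors of the COUP-TF type and a transcriptional coactivator, fell in both, with log2 fold changes at E14.5 of -2.08, -1.06 and -2.06 (edgeR adjusted p = 4.39e-07, 3.14e-05 and 2.12e-07).

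Genes whose pattern over the 9 samples was most like that of 4 members were sought among 10942 genes with a mean of at least 5 FPKM in some stage, by Pearson r of log2(FPKM + 1), and are given as a description. For *Stra6* they were *Nf2* (r = 0.987), *Adgrl1* (0.985) and *Flna* (0.983). For *Aldh1a1* they were *Extl3* (0.967), *Ssh1* (0.952) and *Kdm3b* (0.944), and for *Aldh1a3*, *Hspg2* (0.969), *Rhbdd3* (0.968) and *Agbl5* (0.963). For *Cyp26a1* they were *Tom1l1* (0.984), *Postn* (0.982), which encodes a matrix protein and had a mean FPKM of 16.7, 68.4 and 49.2 at the 3 stages, and *Prkg1* (0.981). The 9 points come from 3 stages and are not independent of stage.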

How the data were processed

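RNA-Seq values of 9 samples, 3 per stage, were used, with stages and replicate numbers taken from the labels. As described in the methods, the authors filtered reads, mapped them to reference genes with Bowtie2 and to GRCm38 with HISAT, and quantified genes with RSEM (versions not given in the sources used here). The deposited expected counts are estimates without normalization. The deposited FPKM values were scaled by the authors to transcript length and mapped fragments. Only genes with an estimate are listed, and genes not listed in a sample were taken as 0. Library totals were alike, so counting error is small except for rare transcripts. It is the only error a floor of 3 counts covers.

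Expected counts were rounded and fitted with edgeR 4.0.16 in R 4.3.3 (filterByExpr by stage, TMM, stage as the only term, 3 contrasts). SEs and 95% intervals were derived from the F statistic. Symbols and positions came from RefSeq by Entrez identifier, and identities from pairwise alignment in Biopython 1.88. The edgeR script was tested on simulated data. Alternatives were library totals, RLE, DESeq2 1.42.0, no filter, limma 3.58.1 on log2(FPKM + 1) or log2(FPKM + 0.1), only the 6 samples compared, a replicate block, leaving out each sample, no fold minimum, and the NOISeq criterion (probability of at least 0.8, zeros set to 0.01) recomputed from FPKM.

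The members, lists and tests were chosen with earlier results of these data known. All 10 members are named. Other genes are named where called by edgeR with a mean of at least 5 FPKM in either stage compared, or as the 3 closest in pattern to *Stra6*, *Aldh1a1*, *Aldh1a3* and *Cyp26a1*. *Aldh1a7* and *Cyp26c1* are named in any case, and *Adh5* to show what the sum of retinol oxidizing members leaves out. The labels give no batch or date. Replicates of a stage differed by more than sampling noise, so each was counted as 1 sample. Values of some genes on the lists are not reported here.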

Additional observations from a re-analysis of the deposited data

How the results depend on the processing

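Of 609 values of single members under the alternatives, 553 kept their direction and call, 40 lost the call, 7 gained it and 9 changed sign. No paired design is stated, and samples with the same replicate number did not deviate together (mean r -0.0341 over 9 pairs, against 0.0178 over 18 pairs with different numbers). With a replicate block, the 3 comparisons kept their counts, and all 30 member values kept direction and call (*Adh7* from E14.5 to E16.5, 2.08). For E16.5 against E10.5, the members called higher fell from 5 to 3 with library totals, with limma at either pseudocount and with NOISeq, and ranged from 3 to 5 with single samples left out. For E16.5 against E14.5, those higher fell from 2 to 1 with library totals, DESeq2 and the 6 samples alone, and ranged from 1 to 2 with samples left out, while those lower ranged from 2 to 4. E14.5 against E10.5 had 4 to 5 higher (5 without E10.5 replicate 1, which added *Aldh1a3*) and 0 lower with single samples left out, with 6 higher when no fold minimum was asked and 3 by NOISeq. Values that changed sign, none of them called, were those from E10.5 to E14.5 of *Stra6* (-0.15 to 0.59 with samples left out, below 0 without E14.5 replicate 3), *Aldh1a1* (-0.16 to 1.13, below 0 without E10.5 replicate 3), *Aldh1a2* (-0.33 to 0.30, above 0 without E10.5 replicate 1, E10.5 replicate 2 or E14.5 replicate 1, and 0.12 without both libraries that stood apart) and *Cyp26b1* (-0.83 to 0.07, above 0 without E14.5 replicate 1). A called value, that of *Aldh1a1* from E10.5 to E16.5, became 0.11 with *Aldh1a7* summed, also without E14.5 replicate 1. The log2 ratio of *Aldh1a* to *Cyp26* moved at E14.5 to 2.20 in expected counts, 1.37 without *Aldh1a1* and 2.37 with *Aldh1a7*, and at E16.5 to 2.27, 1.40 and 1.94. The share of *Aldh1a3* moved to 65.4% (E10.5) and 93.3% (E16.5) in expected counts, and to 42.9% (E14.5) and 66.1% (E16.5) with *Aldh1a7*. Summing *Aldh1a7*, and leaving out both libraries at once, were chosen after the data were seen. Beyond fewer samples and the added gene, the cause of these shifts was not tested. Depth limits *Adh1* and *Adh7* at E10.5, where 3 counts per library could have been missed.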
